A study of Homo sapiens with 8 samples.

Results

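Knockdown of *YAP1* together with *WWTR1*, the gene of TAZ, was compared with a control siRNA in HCT-116, an epithelial cell line from a human colorectal carcinoma. The comparison took 4 of the 8 samples of the series, namely the 2 labelled siYAP/TAZ and the 2 labelled siNC. Total RNA was sequenced after transient transfection, siNC 1 and siNC 2 with a non-targeting siRNA, siYAP/TAZ 1 with siYAP_1 and siTAZ_1, and siYAP/TAZ 2 with siYAP_2 and siTAZ_2. The other 4 samples received siRNAs against *HHEX* (3 samples) or against *TEAD1* to *TEAD4* (1 sample) and entered the comparison only where named. The 2 siYAP/TAZ samples thus differed in siRNA as well as in culture or library, and no label said whether the 2 samples of a group came from separate cultures, so that every p value measured the spread between these samples alone. A gene was tested when it reached 1 FPKM, a fragment count scaled by transcript length and by the size of the library, in at least 2 of the 4 samples. This left 10461 of 20030 rows. At this limit *HIST1H2AJ* (1.6, 1, 0.525 and 0.711 FPKM in siNC 1, siNC 2, siYAP/TAZ 1 and siYAP/TAZ 2) and *CAMK4* were tested, and *AMOT* and *ECHDC2* (0.704, 0.624, 0.999 and 1.1 FPKM) were not.

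YAP and TAZ are transcriptional coactivators without a DNA-binding domain, and they reach their target genes mainly through the TEAD transcription factors. In the Hippo pathway the kinases MST1/2 activate the kinases LATS1/2, which phosphorylate YAP and TAZ, keep them in the cytoplasm and mark them for degradation. In the intestinal epithelium YAP and TAZ are known for their role in regeneration, and they are often active in colorectal tumours.

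The sites of the 4 siRNAs are shown because they are what the samples received and what the paired samples do not share. All lay in coding sequence, on GRCh38 with GENCODE annotation. siYAP_1 and siYAP_2 lay in exon 2 of *YAP1*, at chr11:102114365-102114383 and chr11:102114373-102114391 on the plus strand, and shared 11 of their 19 bases. siTAZ_1 lay in exon 7 of *WWTR1*, at chr3:149520887-149520905 on the minus strand. siTAZ_2 spanned the junction of exons 2 and 3, with 14 bases at chr3:149656876-149656889 and 5 bases at chr3:149572996-149573000, and began 685 bases from siTAZ_1 in the transcript. The sources of the siTAZ_2 sequence differ from each other at 2 bases within the capitals, and the form that matches the transcript is shown and was used for seed matches. Capitals mark the 7 bases that pair with the seed, bases 2 to 8, of the guide strand.
siYAP_1: gacaucuucugGUCAGAGa
siYAP_2: cuggucagagaUACUUCUu
siTAZ_1: acguugacuuaGGAACUUu
siTAZ_2: agguacuuccuCAAUCACa

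Both targeted transcripts were lower in the samples labelled siYAP/TAZ. *YAP1* was 20.2 FPKM in siNC 1 and 19.7 FPKM in siNC 2, against 6.9 FPKM in siYAP/TAZ 1 and 8.39 FPKM in siYAP/TAZ 2. *WWTR1* was 6.8 and 6.72 FPKM in the siNC samples against 2.64 and 2.58 FPKM in the siYAP/TAZ samples. The groups did not overlap, and 38.3% of *YAP1* and 38.6% of *WWTR1* FPKM remained. On the log2(FPKM + 1) scale, *YAP1* fell by 1.28 ± 0.115 (SE, n = 2 per group, limma adjusted p = 0.00835) and *WWTR1* fell by 1.1 ± 0.0983 (limma adjusted p = 0.00835). The limma adjusted p of *YAP1* rose to 0.0601 in a fit of all 8 samples, to 0.0855 without siNC 1 and to 0.0866 without siNC 2, and ranged from 6e-05 to 0.0866 over 14 alternatives. For *WWTR1* it was 0.0974 without siNC 1 and 0.0977 without siNC 2, in a range from 0.000155 to 0.0977.

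The cells had the defining markers of an epithelial line. *KRT8* (1590 and 1710 FPKM in siNC), *KRT18*, *KRT19* and *EPCAM* (174 and 162 FPKM in siNC, 148 and 157 FPKM in siYAP/TAZ) were abundant, whereas *CDH17*, an intestinal cadherin, stayed under 0.01 FPKM in all 4 samples. Of the markers of other cell types, 1 of 6 fibroblast genes, 1 of 5 immune genes and 0 of 4 endothelial genes passed the filter. The fibroblast list summed to 0.994 and 0.828 FPKM in siNC and 1.33 and 2.8 FPKM in siYAP/TAZ, most of it *COL1A1*. The immune list summed to 3.79 and 3.98 FPKM in siNC and 7.43 and 5.52 FPKM in siYAP/TAZ, nearly all of it *CD68*, a lysosomal protein, while *PTPRC* stayed at or under 0.0786 FPKM. The endothelial list stayed at or under 0.221 FPKM in sum, with *CDH5* listed at 0 in all 4 samples. In bulk RNA, fewer cells of a kind and less RNA per cell cannot be told apart.

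The files held no read counts, so the depth of a sample was unknown. From the spacing of the lowest values, the depths relative to siNC 1 were 0.958 in siNC 2, 1.06 in siYAP/TAZ 1 and 0.997 in siYAP/TAZ 2. The FPKM values summed to 348610 and 345773 in siNC and to 331663 and 336954 in siYAP/TAZ. A value above 0 was listed for 14235 and 14157 rows in siNC and for 14518 and 15034 rows in siYAP/TAZ.

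Fewer genes fell than rose after *YAP/TAZ* knockdown in the values as deposited, which median scaling turned around (915 lower, 785 higher), and the genes that fell were the more abundant. By limma with Benjamini-Hochberg adjustment over the 10461 genes tested, 573 genes were lower (5.48% of those tested) and 1309 higher (12.5%) at an adjusted p under 0.05. When a gene had to differ more than 2-fold with an unadjusted p below 0.05, 46 genes were lower (0.44%) and 120 higher (1.15%), of which 44 and 113 also passed the adjusted p. Both siYAP/TAZ values lay under both siNC values for 2634 genes (25.2%) and above them for 4481 genes (42.8%). Genes that passed the filter through 1 group alone could not overlap, and they add to these counts. With the filter in all 4 samples, 558 of 9842 tested genes were lower and 1132 higher at an adjusted p under 0.05. By their mean over the 4 samples, the lowered genes had a median of 23.2 FPKM and the raised genes 4.91 FPKM, against 8.01 FPKM for all tested genes. The median log2 fold change was 0.078 over all tested genes, -0.53 over the lowered and 0.6 over the raised.

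How many genes passed, and in which direction, depended on the scaling and on the samples. The calls were 30.4% lower and 69.6% higher as deposited, 53.8% lower and 46.2% higher with the samples scaled to the same median, 54.7% and 45.3% after GC content and length were corrected for, and 19.8% and 80.2% with FPKM rescaled to a common sum. No gene called in one direction as deposited was called in the other under any of these. Without siNC 1 only 3 genes were lower and 1 higher by limma adjusted p, and without siNC 2 only 1 was lower and 0 higher, with 503 lower and 1273 higher at an unadjusted p under 0.05. No gene list described here then had more than 2 called members. Without siYAP/TAZ 1 the calls were 1989 lower and 3494 higher, and without siYAP/TAZ 2 1433 lower and 2604 higher. The siNC samples differed by over 2-fold in 4 tested genes and the siYAP/TAZ samples in 54.

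**Figure D1:**
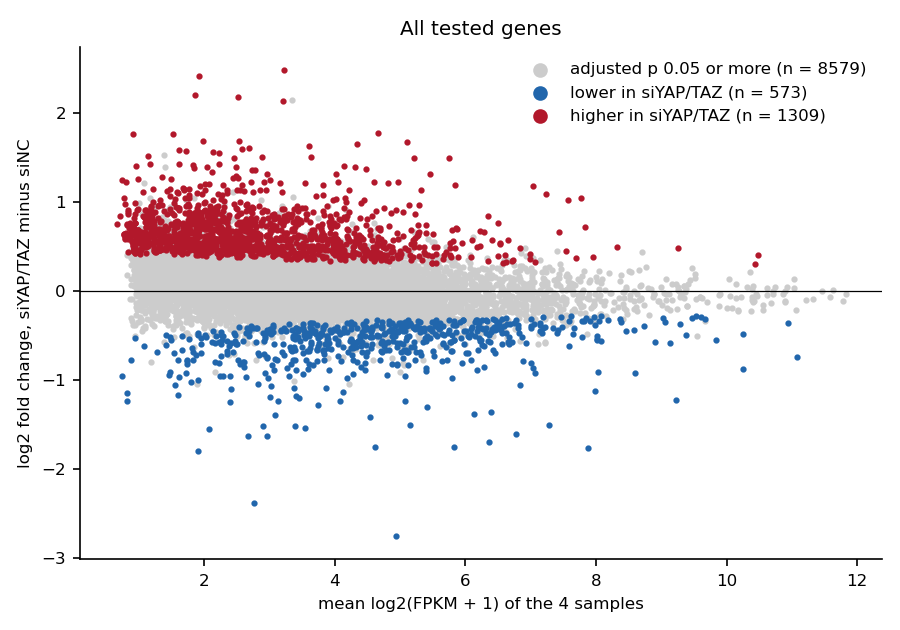
Each point is 1 of the 10461 tested genes, with its mean log2(FPKM + 1) over the 4 samples on the x axis and its log2 fold change, siYAP/TAZ minus siNC, on the y axis. The 573 lowered genes (blue) spread to high levels, whereas most of the 1309 raised genes (red) lie at low levels.

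Among the 12 genes that fell most, *F3*, tissue factor, the starter of blood coagulation, was 79.6 and 77.7 FPKM in siNC against 11.3 and 10.4 FPKM in siYAP/TAZ, a log2 fold change of -2.75 ± 0.0879 (limma adjusted p = 0.000864). *AMOTL2*, an angiomotin-family scaffold that binds YAP, was 14.3 and 14.6 FPKM against 1.72 and 2.24 FPKM (-2.38 ± 0.12). On average 13.8% of *F3* and 13.7% of *AMOTL2* FPKM remained, and the siYAP/TAZ samples lay close to each other. *CCND1*, cyclin D1, which drives entry into the cell cycle, was 420 and 441 FPKM against 159 and 101 FPKM (-1.76 ± 0.204). *SLC2A1*, the glucose transporter GLUT1, was 184 and 198 FPKM against 79.8 and 47.8 FPKM (-1.61 ± 0.225). *FOSL1*, the AP-1 subunit FRA1, was 148 and 147 FPKM against 57.8 and 34.5 FPKM (-1.7 ± 0.225). In these last genes siYAP/TAZ 2 was the lower of the knockdown samples. That all siNC values lay above all siYAP/TAZ values was a condition for choosing the 12 genes.

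Among the receptors, *EPHA2*, an ephrin receptor kinase, fell from 42.5 and 45.4 FPKM to 14.3 and 10.6 FPKM, and *AXL*, the receptor kinase for GAS6, fell from 18.9 FPKM in both siNC samples to 5.23 and 6.48 FPKM. *GPRC5A*, an orphan G protein-coupled receptor, fell from 99.5 and 107 FPKM to 37.7 and 24 FPKM. *BCAR3*, an adaptor of focal adhesion signalling, retained 27% of its siNC level, and *CYR61* (now CCN1), a secreted matricellular protein, 26.3%. The keratins *KRT80* and *KRT7* retained 16.9% and 23.5%. The limma adjusted p of the 12 genes ran from 0.000864 for *F3* to 0.0161 for *SLC2A1*.

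The 12 genes that rose most were mostly scarce in siNC, and *HIST1H2BD*, *LY6D*, *MT1F* and *MOB4* passed the filter only through siYAP/TAZ. *TM7SF2*, a sterol reductase of cholesterol synthesis, was 2.38 and 3.62 FPKM in siNC against 16.3 and 26.9 FPKM in siYAP/TAZ (log2 fold change 2.48 ± 0.257, limma adjusted p = 0.0107). *DDIT4*, the mTORC1 inhibitor REDD1, was 12.5 and 12.7 FPKM against 39.1 and 53.7 FPKM (1.78 ± 0.155). *GDF15*, a secreted stress cytokine, was 18.2 and 18.3 FPKM against 76.9 and 47.2 FPKM (1.67 ± 0.217). *ABCC2*, the export pump MRP2, was 10.1 and 10.6 FPKM against 29.6 and 40.9 FPKM (1.65 ± 0.158). These 3 were the only genes of the 12 with over 10 FPKM in both siNC samples.

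*TP53I3*, an oxidoreductase induced by p53, rose from 2.17 and 2.3 FPKM to 8.16 and 10.7 FPKM, and *LY6D*, a surface protein anchored by a lipid, from 0.473 and 0.936 FPKM to 5.36 and 8.52 FPKM. *OLFM2*, an olfactomedin, rose from 1.21 and 1.2 FPKM to 4.39 and 8.26 FPKM. The knockdown samples disagreed in size for *PNRC1*, a nuclear receptor coactivator (6 FPKM in siYAP/TAZ 1, 20 FPKM in siYAP/TAZ 2, 1.89 and 1.5 FPKM in siNC), and for *AQP3*, a water and glycerol channel (32.2 and 10.1 FPKM against 3.52 and 3.28 FPKM). The other 3 genes have uncertain values, as their reads could be shared with other loci. *HIST1H2BD*, a histone H2B gene (0.68 and 0.593 FPKM against 6.83 and 8.78 FPKM), and *MT1F*, a metallothionein, have near-identical copies. *MOB4* was near 0 in siNC (0.0028 and 0.0311 FPKM) and 2.91 and 2.04 FPKM in siYAP/TAZ, while *HSPE1-MOB4*, the readthrough gene that contains it, went from 19.3 and 17.2 FPKM to 11.3 and 11.1 FPKM. The limma adjusted p of the 12 ran from 0.0051 for *HIST1H2BD* to 0.0349 for *AQP3*.

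**Figure D2:**
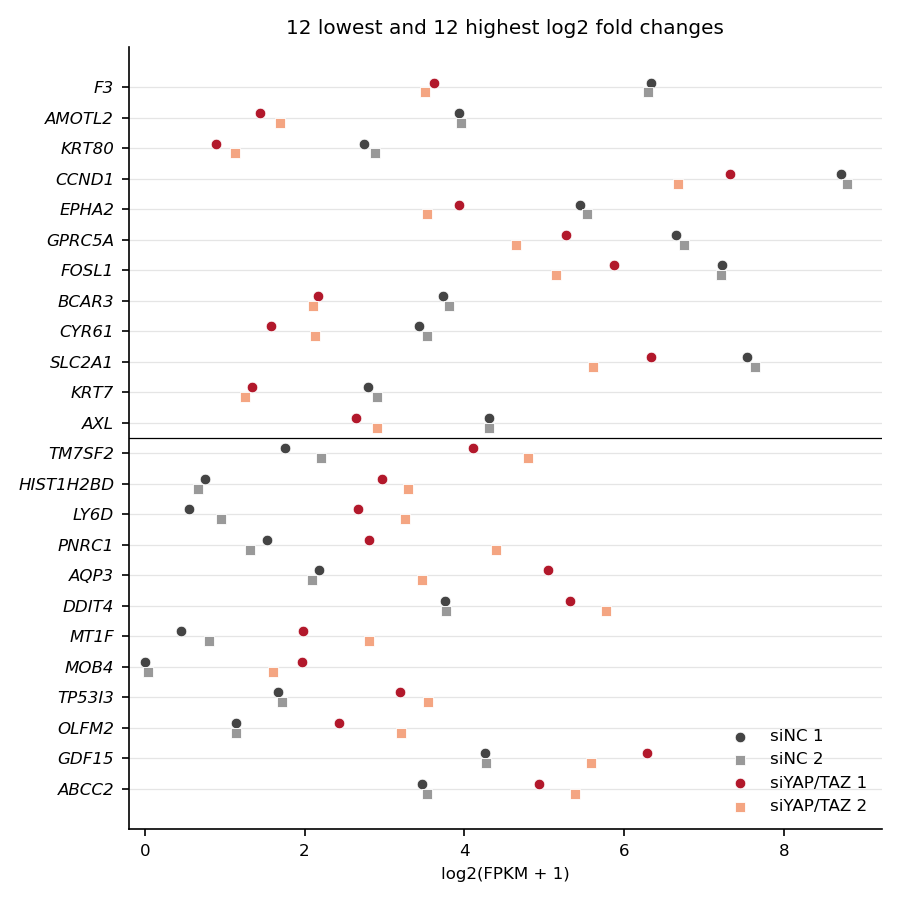
The 12 lowest (above the line) and 12 highest (below it) log2 fold changes among genes with adjusted p under 0.05 and no overlap of the groups; each point is 1 sample on the log2(FPKM + 1) scale. The siNC samples (grey) lie close together, and the siYAP/TAZ samples (red and orange) lie apart from each other in *PNRC1* and *AQP3*.

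Several Hippo pathway components fell with their effectors. Of 20 tested components, 8 fell (40%, beside 5.48% of all tested genes) and 2 rose (10%, beside 12.5%), with a median log2 fold change of -0.14. In the fit of all 8 samples 6 components fell and 1 rose. The kinase module differed by member. *LATS2*, which phosphorylates YAP and TAZ, was 3.65 and 3.71 FPKM in siNC against 1.61 and 2.11 FPKM in siYAP/TAZ (limma adjusted p = 0.0232), whereas *LATS1* was 3.22 and 2.86 FPKM against 3 and 2.9 FPKM. *SAV1*, the scaffold of the MST kinases, fell from 19.3 and 19.5 FPKM to 10.4 and 9.58 FPKM (limma adjusted p = 0.0107). The MST kinase genes *STK3* and *STK4* had log2 fold changes of -0.052 and -0.026, with overlapping groups.

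Upstream of the kinases, *NF2* (merlin) fell to 63.1%, *WWC1* (KIBRA) to 60.6% and *WWC2* to 67.2% of siNC. *PTPN14*, a phosphatase that binds YAP, fell to 53.2% and *AJUBA*, a LIM protein that restrains LATS, to 40%, while *LIMD1*, another such LIM protein, was at 88.2% with overlapping groups. *AMOTL2* fell most and its relative *AMOTL1* had a log2 fold change of 0.28 (limma adjusted p = 0.11). The kinases *MAP4K4* (10.3 and 9.73 FPKM in siNC, 14.7 and 16.5 FPKM in siYAP/TAZ) and *TAOK1* (limma adjusted p = 0.0498) rose. The call of *TAOK1* ended with median scaling, with the filter in all 4 samples, in the fit of all 8 samples, with GC content and length corrected for and with no variance trend. With the replicate block, alone or with GC content and length corrected for, 1 component rose instead of 2.

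Of the factors that carry YAP and TAZ to DNA, *TEAD4* was the most abundant TEAD in siNC, at 20.3 and 21.3 FPKM, and fell to 12.5 and 13.6 FPKM in siYAP/TAZ (limma adjusted p = 0.0171). *TEAD1* was 18.3 and 19 FPKM against 16.4 and 16.1 FPKM (limma adjusted p = 0.169). *TEAD2* rose from 4.1 and 3.47 FPKM to 5.54 and 6.32 FPKM as deposited (limma adjusted p = 0.0367). This call ended with median scaling, in the fit of all 8 samples and with GC content and length corrected for. *TEAD3* had a log2 fold change of 0.12 with no overlap but no call. Of the VGLL cofactors, *VGLL4*, which competes with YAP for TEAD, overlapped between groups, and *VGLL1* and *VGLL2* were listed at 0.

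Known YAP/TEAD target genes had the largest share of lowered members among the lists with at least 5 tested genes. Of 22 listed genes 16 were tested, 12 fell (75%, beside 5.48% of all tested genes) and 0 rose by limma (also 0 at an unadjusted p under 0.05), with a median log2 fold change of -0.72 against 0.078 for all tested genes. *CTGF* (now CCN2), a matricellular protein and the usual reporter of YAP activity, was 1.62 and 1.76 FPKM in siNC against 0.209 and 0.0794 FPKM in siYAP/TAZ, or 8.54% of siNC (limma adjusted p = 0.00991). *CYR61* was 9.83 and 10.6 FPKM against 2 and 3.37 FPKM. *CRIM1*, a membrane protein that binds BMPs, was 3.54 FPKM in both siNC samples against 1.47 and 1.31 FPKM. *FJX1* fell from 15.4 and 13 FPKM to 7.85 and 4.72 FPKM, and *NUAK2*, a kinase of the AMPK family, from 1.32 and 1.29 FPKM to 0.557 and 0.631 FPKM. *ASAP1* and *DOCK5*, regulators of small GTPases, fell to 69.2% and 70.8%.

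The 4 tested targets that were not called were *MYOF*, *GADD45A* (31.5 and 29.2 FPKM against 36.7 and 33.4 FPKM), *NT5E* and *ARHGEF17*. *ANKRD1* and *FOXF2* were listed at 0 in all 4 samples, and *IGFBP3*, *CCDC80*, *TGFB2* and *RBMS3* stayed under 0.2 FPKM, so that 6 of the 22 gave no test. *CTGF* and *NUAK2* passed the filter only through siNC, the group where they are high, and 10 of 14 fell with the filter in all 4 samples. The count of 12 was also 12 with median scaling, with FPKM rescaled to a common sum and with GC content and length corrected for, and was 10 in the fit of all 8 samples. It fell to 2 without siNC 1, to 1 without siNC 2 and to 1 with no filter, and was 13 without siYAP/TAZ 1 and 15, with 1 higher, without siYAP/TAZ 2. *AMOTL2*, *LATS2* and *PTPN14* belong to both the target list and the Hippo list.

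**Figure D3:**
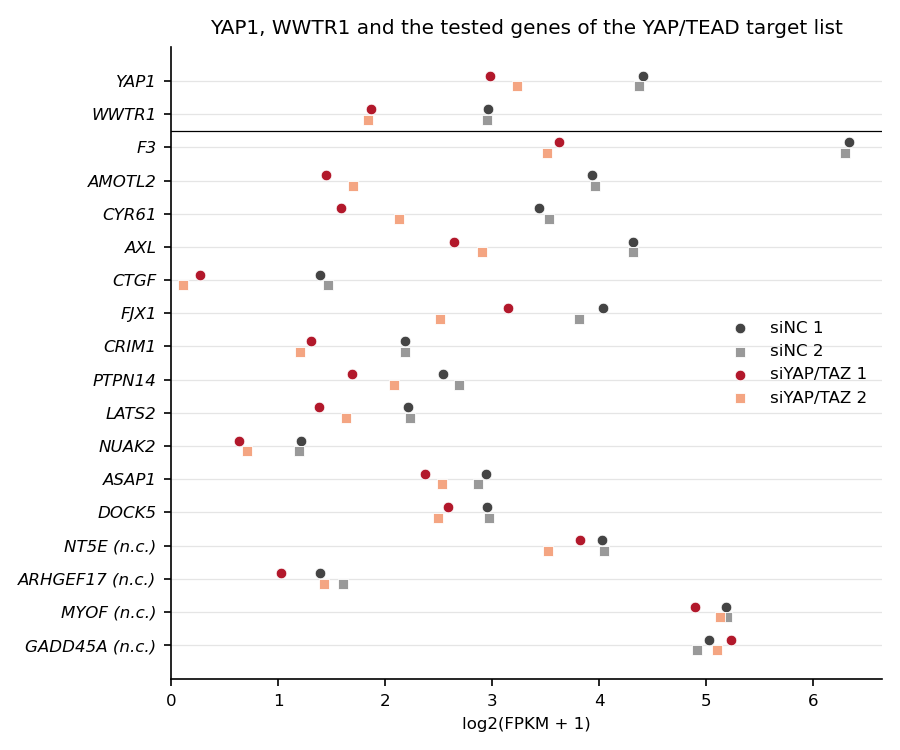
log2(FPKM + 1) of *YAP1*, *WWTR1* (above the line) and the 16 tested genes of the YAP/TEAD target list in each of the 4 samples; n.c. marks genes with an adjusted p of 0.05 or more. Both siYAP/TAZ samples (red and orange) lie below both siNC samples (grey) in all 12 called targets, as in all 573 genes called lower.

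TEAD factors bind a core of GGAATG. The promoter of *CTGF* is shown because it held the most copies of these letters, 3, among the genes lowered over 2-fold that had a promoter in the RefSeq table (GRCh38.p14, 250 bases before to 50 bases after the start). The stretch lies at chr6:131951454-131951549 on the minus strand, ending 82 bases before the start, with the matches in capitals.
CTGF: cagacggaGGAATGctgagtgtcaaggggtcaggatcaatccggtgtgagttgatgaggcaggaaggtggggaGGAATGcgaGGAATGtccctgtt
GGAATG or its reverse complement CATTCC occurred in 14% of the 27305 promoters of that table and in 10.5% of the 8550 promoters found for the 10461 tested genes. A promoter was found for 30 of the 46 genes lowered over 2-fold and for 452 of the 573 lowered by adjusted p, under the 80% set as the minimum in both cases, so that shares among the lowered genes were not compared. A match is a run of letters and not a measured binding site.

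Of 14 tested ERK feedback and target genes 2 fell (14.3%, beside 5.48%), *EPHA2* and the ERK phosphatase *DUSP5* (111 and 113 FPKM in siNC, 49.1 and 36.5 FPKM in siYAP/TAZ), and 1 rose (7.14%, beside 12.5%), the ETS factor *ETV1*. Of 8 tested EGFR ligands and receptors 3 rose (37.5%, beside 12.5%) and 1 fell (12.5%, beside 5.48%). The ligand gene *BTC* (0.435 and 0.456 FPKM in siNC, 1.03 and 1.72 FPKM in siYAP/TAZ) passed the filter only through siYAP/TAZ, and with the filter in all 4 samples 2 of 7 rose. *AREG*, amphiregulin, the most abundant ligand, rose from 224 and 208 FPKM to 279 and 284 FPKM as deposited, and *ERBB3* from 3.41 and 3.11 FPKM to 5.39 and 8.02 FPKM, while *HBEGF* fell from 5.56 and 5.31 FPKM to 3.69 and 2.74 FPKM. With median scaling 1 of the 8 rose and 2 fell. In the AP-1 family *FOSL1* fell and *JUND* rose (61.9 and 57.2 FPKM against 92.1 and 125 FPKM), 14.3% each beside 5.48% and 12.5%, and the other 5 of 7 were not called.

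Of 16 tested G1 genes 2 fell (12.5%, beside 5.48%) and 1 rose (6.25%, beside 12.5%), and in the fit of all 8 samples 1 fell and 0 rose. *CCND1* and its partner kinase *CDK6* (9.49 and 10.6 FPKM in siNC, 5.3 and 5.7 FPKM in siYAP/TAZ) fell, and the CDK inhibitor *CDKN2C* rose as deposited but not with median scaling. Of 40 tested mitotic genes 12 fell (30%, beside 5.48%) and 0 rose by limma (3 higher at an unadjusted p under 0.05), with a median of -0.21. *PLK1*, a mitotic kinase, was 99.1 and 109 FPKM against 62.7 and 52.1 FPKM, *CDC20*, an activator of the anaphase-promoting complex, 231 and 243 FPKM against 157 and 151 FPKM, and *CDCA8*, a subunit of the chromosomal passenger complex, 47.6 and 49.8 FPKM against 32.5 and 32.6 FPKM. All these values separated the groups, as did those of all 573 genes called lower. Rescaled to a common sum, 10 mitotic genes fell and 1 rose, and 5 fell in the fit of all 8 samples. Without siYAP/TAZ 1 the list had 16 lower and 7 higher, and without siYAP/TAZ 2 20 lower and 1 higher.

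Of 42 DNA replication genes 3 fell (7.14%, beside 5.48%) and 0 rose by limma (2 higher at an unadjusted p under 0.05), with a median of -0.12. They were *UHRF1*, which recruits the maintenance DNA methyltransferase (44.6 and 46.4 FPKM against 25.4 and 24.9 FPKM), *GINS1*, a subunit of the replicative helicase, and *MCM7*, another, at 80.5% of siNC. The count was 7 with median scaling, where 915 of all 10461 tested genes fell, and 6 with GC content and length corrected for.

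Of 12 tested keratin genes 7 fell (58.3%, beside 5.48% of all tested genes) and 1 rose (8.33%, beside 12.5%), with a median of -0.62, and the list summed to 3230 and 3390 FPKM in siNC and to 1900 and 1940 FPKM in siYAP/TAZ. *KRT18* fell from 900 and 917 FPKM to 376 and 404 FPKM (limma adjusted p = 0.0051) and *KRT8*, its partner in simple epithelia, from 1590 and 1710 FPKM to 898 and 897 FPKM. *KRTAP2-3*, a keratin-associated protein, retained 29.2%. With the filter in all 4 samples 5 of 9 fell and 1 rose, and with no filter the median over all 17 listed genes turned to 0.43. The 5 that did not pass the filter, *KRT4*, *KRT5*, *KRT14*, *KRT16* and *KRT17*, keratins of stratified epithelia named here after their values were seen, were under 1 FPKM in siNC and in siYAP/TAZ 1 and between 3.66 FPKM (*KRT17*) and 12.3 FPKM (*KRT14*) in siYAP/TAZ 2. *KRT23* rose from 3.22 and 3.06 FPKM to 12.4 and 7.43 FPKM. Of the 5 tested epithelial markers 3 fell (60%, beside 5.48%), all of them keratins, while *EPCAM* and *CDH1* were not called. The count of lowered markers was 2 in the fit of all 8 samples, with FPKM rescaled to a common sum and with no variance trend.

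Of 32 tested actin and focal adhesion genes 13 fell (40.6%, beside 5.48%) and 1 rose (3.12%, beside 12.5%), with a median of -0.38. *CAV2*, caveolin 2, was 68.3 and 63.1 FPKM in siNC against 29.6 and 22.9 FPKM in siYAP/TAZ, and *PXN*, paxillin, 36.5 and 38.5 FPKM against 22.2 and 16.4 FPKM. *TPM4*, a tropomyosin, went the other way, from 27 and 26.4 FPKM to 80.6 and 57.5 FPKM. The fit of all 8 samples called 8 lower and 1 higher, median scaling 17 lower and 1 higher.

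Among 22 tested cell junction genes, 5 rose (22.7%, beside 12.5%) and 0 fell by limma (also 0 at an unadjusted p under 0.05). The tight junction genes *CLDN3*, a claudin (1.6 and 1.54 FPKM against 5.33 and 8.03 FPKM), and *TJP3* (1.58 and 1.89 FPKM against 5.83 and 8.32 FPKM) rose, as did *DSC2*, a desmosomal cadherin (6.33 and 6.44 FPKM against 24 and 16.7 FPKM). *CLDN4* rose from 40.5 and 45.5 FPKM to 80.7 and 60.2 FPKM. With median scaling 3 rose. Without siYAP/TAZ 1 the list had 10 higher and 4 lower, and without siYAP/TAZ 2 11 higher and 1 lower. Of 19 matrix and protease genes 4 fell (21.1%, beside 5.48%) and 4 rose (21.1%, beside 12.5%), and with the filter in all 4 samples 3 of 17 fell and 3 rose. *COL12A1*, a fibril-associated collagen, fell to 38.7%, *THBS1*, thrombospondin 1, to 32% and the laminin chain *LAMB3* to 49.9% of siNC, and *COL17A1*, a hemidesmosomal collagen that passed the filter only through siYAP/TAZ, rose from 0.638 and 0.646 FPKM to 3.52 and 2.53 FPKM.

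**Figure D4:**
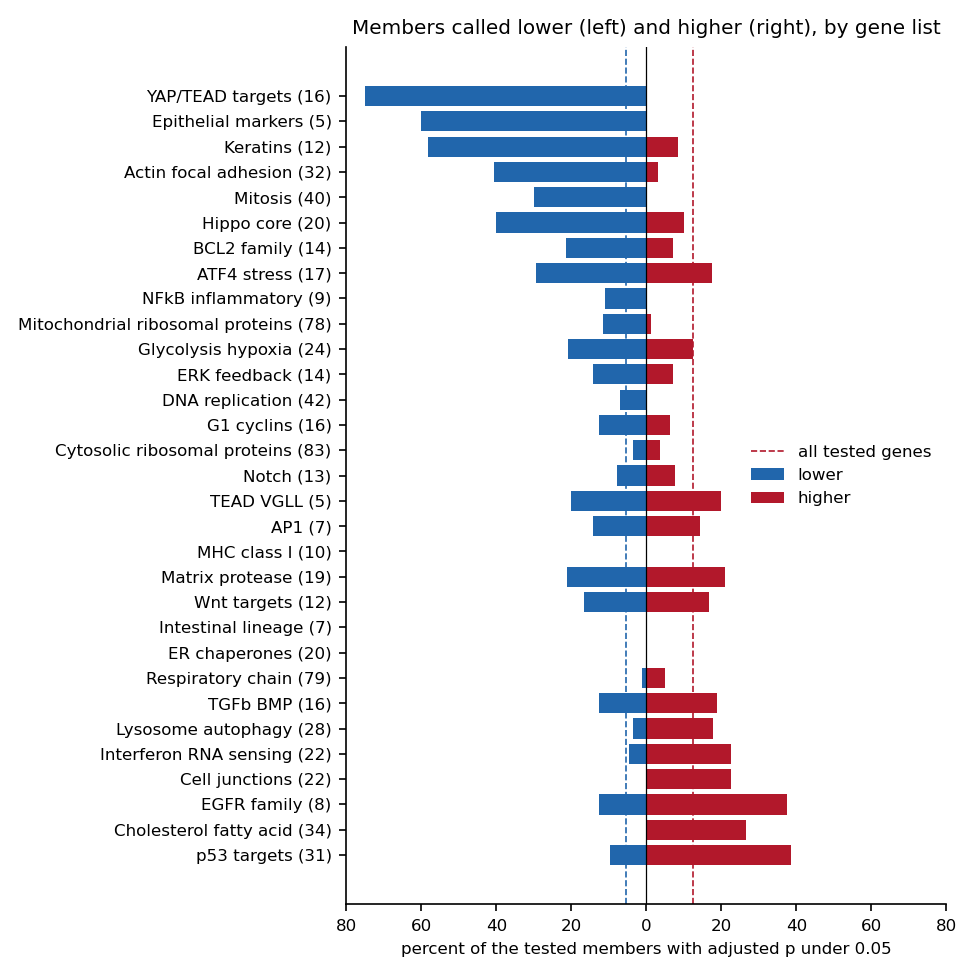
For each list with at least 5 tested genes (number tested in brackets), the bars give the percent of tested members with an adjusted p under 0.05 that were lower (left) or higher (right) in siYAP/TAZ; dashed lines give the 5.48% and 12.5% of all tested genes. The YAP/TEAD targets have the longest bar to the left, and the p53 targets the longest to the right.

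Targets of p53, which HCT-116 cells carry in wild-type form, rose more often than they fell. Of 31 tested genes 12 rose (38.7%, beside 12.5%) and 3 fell (9.68%, beside 5.48%), with a median of 0.39, and with median scaling 12 rose and 4 fell. *TP53I3* and *GDF15* are given above. *TP53INP1*, a p53-induced regulator of autophagy and cell death, was 2.55 and 2.39 FPKM in siNC against 6.86 and 9.54 FPKM in siYAP/TAZ (limma adjusted p = 0.0121), and *BTG2*, an antiproliferative factor, 13.4 and 12.3 FPKM against 28.9 and 41.4 FPKM (limma adjusted p = 0.0139).

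Of 14 tested genes of the BCL2 family 3 fell (21.4%, beside 5.48%) and 1 rose (7.14%, beside 12.5%). *BBC3*, the BH3-only activator PUMA, rose from 4.33 and 4.08 FPKM to 10.3 and 12.6 FPKM, and *PMAIP1*, the BH3-only protein NOXA, fell from 41.8 and 40.1 FPKM to 25.2 and 25.6 FPKM. The survival genes *BCL2L1*, encoding BCL-XL, at 75.9 and 77.9 FPKM against 39.6 and 37.2 FPKM (limma adjusted p = 0.00814), and *MCL1*, at 73.2 and 71.3 FPKM against 57.2 and 43.2 FPKM (limma adjusted p = 0.0499), fell. *MCL1* was not called with the filter in all 4 samples, in the fit of all 8 samples, with rescaling to a common sum or with no variance trend, and 2 of the 14 then fell.

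Of 34 cholesterol and fatty acid synthesis genes 9 rose (26.5%, beside 12.5%) and 0 fell by limma (also 0 at an unadjusted p under 0.05), with a median of 0.32. Besides *TM7SF2* these included *INSIG1*, which retains SREBP in the endoplasmic reticulum (6.13 and 6.09 FPKM against 12.4 and 10.7 FPKM), *HSD17B7* and *ACSS2*. The count was 3 with median scaling, where 785 of all 10461 tested genes rose, and 2 in the fit of all 8 samples. The list held lowered members without siYAP/TAZ 1, where its median was 0.22, and the median was 0.39 without siYAP/TAZ 2. Of 24 glycolytic and hypoxia genes 5 fell (20.8%, beside 5.48%) and 3 rose (12.5%, the share of all tested genes). *HK2*, a hexokinase, was lowered together with *SLC2A1*, from 15.4 and 15.1 FPKM to 7.17 and 8.52 FPKM, whereas *PFKL*, the liver phosphofructokinase, rose from 10 and 10.9 FPKM to 18 and 19.6 FPKM and *NDRG1* from 9.51 and 9.7 FPKM to 17.9 and 18.5 FPKM.

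Of 17 tested genes of the ATF4 stress list 5 fell (29.4%, beside 5.48%) and 3 rose (17.6%, beside 12.5%). *SLC7A5* and *SLC3A2*, the light and heavy chains of the amino acid exchanger LAT1, fell to 48.6% and 58% of siNC, *STC2*, a secreted glycoprotein, fell to 56.2%, and *DDIT4* rose. With median scaling 5 fell and 1 rose, and in the fit of all 8 samples 2 fell and 1 rose. Of 28 lysosome and autophagy genes 5 rose (17.9%, beside 12.5%) and 1 fell (3.57%, beside 5.48%). Under median scaling 2 of them rose, and 1 in the fit of all 8 samples. *TPP1*, a lysosomal protease, rose to 154% and *SQSTM1*, the autophagy receptor p62, to 140% of siNC, and *MCOLN1*, a lysosomal calcium channel, fell to 69.2%. None of the 20 endoplasmic reticulum chaperone genes was called by limma, and 1 was lower and 3 higher at an unadjusted p under 0.05.

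Of 83 cytosolic ribosomal protein genes 3 fell and 3 rose (3.61% each, beside 5.48% and 12.5%), with a median of -0.03. With median scaling 8 fell and 1 rose, and with GC content and length corrected for 13 fell and 2 rose. Many of these have processed pseudogenes that could take part of their reads. Of 78 mitochondrial ribosomal protein genes 9 fell (11.5%, beside 5.48%) and 1 rose (1.28%, beside 12.5%), with a median of -0.14. *MRPS23* was 133 and 130 FPKM against 91.5 and 97.6 FPKM. Rescaling to a common sum called 6 lower and 4 higher, median scaling 17 lower and 0 higher, and the fit of all 8 samples 2 lower and 0 higher. Of 79 respiratory chain genes 4 rose (5.06%, beside 12.5%) and 1 fell (1.27%, beside 5.48%). Rescaling to a common sum called 12 higher, where 1841 of all 10461 tested genes rose.

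Of 41 listed interferon and RNA-sensing genes 22 passed the filter, with a median of 0.37. Of these 5 rose (22.7%, beside 12.5%) and 1 fell (4.55%, beside 5.48%). *SAMD9*, an antiviral factor, was 1.25 and 1.5 FPKM in siNC against 3.23 and 4 FPKM in siYAP/TAZ, and *IFIH1* and *DDX58*, the sensors MDA5 and RIG-I, rose from under 1.5 FPKM to at most 2.39 FPKM. *IFIH1* passed the filter only through siYAP/TAZ. With the filter in all 4 samples 3 of 21 rose, where 1132 of all 9842 tested genes rose. With median scaling 2 rose and 1 fell. None of 10 tested MHC class I genes was called by limma (6 higher at an unadjusted p under 0.05), with *B2M* at 151 and 142 FPKM against 178 and 169 FPKM. Of 9 tested NF-κB genes 1, the subunit *RELB*, fell (11.1%, beside 5.48%).

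Of 12 tested Wnt target genes 2 fell and 2 rose (16.7% each, beside 5.48% and 12.5%). *DKK1*, a secreted Wnt inhibitor, fell from 366 and 348 FPKM to 157 and 228 FPKM and *MYC* from 89.1 and 91 FPKM to 67.6 and 54.4 FPKM, while *RNF43*, a ligase that removes Wnt receptors, rose from 6.61 and 6.72 FPKM to 11.1 and 11 FPKM and *EPHB2* rose from 0.601 and 0.609 FPKM to 1.54 and 1.16 FPKM as deposited. *EPHB2* passed the filter only through siYAP/TAZ and was not called with median scaling. Of 16 TGF-β and BMP genes 2 fell (12.5%, beside 5.48%) and 3 rose (18.8%, beside 12.5%), and 2 rose with median scaling. The BMP targets *ID1* (88.6 and 83.8 FPKM against 198 and 195 FPKM) and *ID3* (33.5 and 28.9 FPKM against 67.9 and 118 FPKM) and the ligand *BMP4* (113 and 108 FPKM against 151 and 134 FPKM) rose and *SMAD3* and *SMAD7* fell to 51.3% and 50.4%. Of 13 Notch genes 1 fell and 1 rose (7.69% each, beside 5.48% and 12.5%). *NOTCH3* rose (1.74 and 1.94 FPKM against 5.3 and 4.11 FPKM) and the ligand *JAG2* fell. The call of *JAG2* ended with FPKM rescaled to a common sum and with no variance trend. None of the 7 tested intestinal lineage genes was called by limma (0 lower and 2 higher at an unadjusted p under 0.05), and 18 of the 25 listed did not pass the filter.

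The siRNA pairs were compared with separate controls, so that no siNC sample was shared. Across the 10461 tested genes, the log2 difference of siYAP/TAZ 1 from siNC 1 and that of siYAP/TAZ 2 from siNC 2 had a Pearson's r of 0.696 and a Spearman's rho of 0.669, and with the controls exchanged 0.708 and 0.707. Genes are not independent replicates, and no p is given. Over 2-fold, 58 genes were lower with the first siRNAs and 94 with the second, and the 36 in common made up 62.1% and 38.3% of them. Over 2-fold higher were 112 and 274 genes, and the 68 in common made up 60.7% and 24.8%. The differences were wider with the second siRNAs, with an SD of 0.437 across genes against 0.352.

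**Figure D5:**
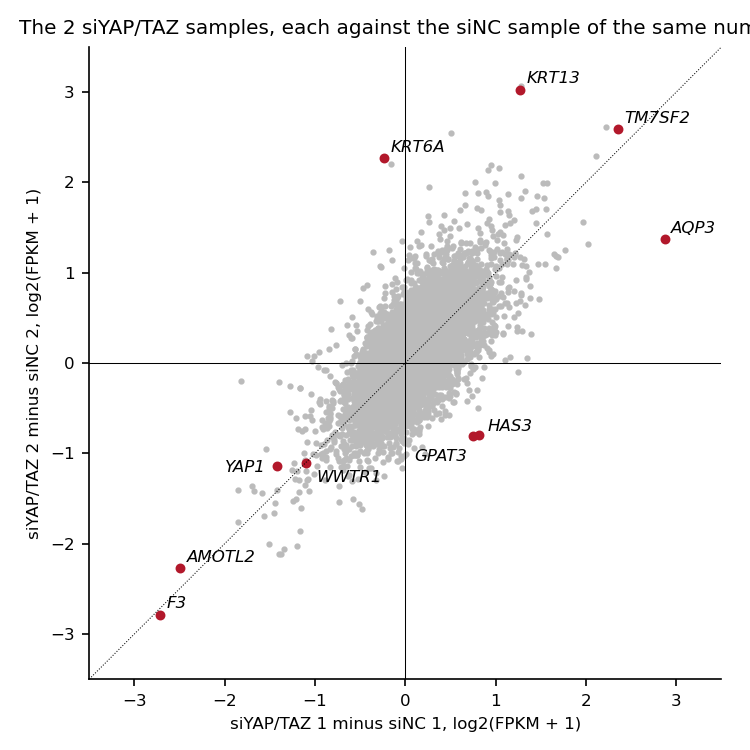
Each point is 1 of the 10461 tested genes, with the difference of siYAP/TAZ 1 from siNC 1 on the x axis and of siYAP/TAZ 2 from siNC 2 on the y axis, in log2(FPKM + 1); the dotted line marks equal differences. *F3*, *AMOTL2*, *YAP1* and *WWTR1* lie near the line, and *KRT6A*, *KRT13*, *AQP3*, *HAS3* and *GPAT3* lie away from it.

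Between the 2 knockdown samples, 38 tested genes were over 2-fold higher in siYAP/TAZ 2 and 16 over 2-fold lower, while 1 gene was higher and 3 were lower in siNC 2 than in siNC 1. The keratins *KRT6A* and *KRT13* were among the 5 tested genes with the largest excess in siYAP/TAZ 2. *KRT13* was 3.47 and 4.2 FPKM in siNC, 9.77 FPKM in siYAP/TAZ 1 and 41.4 FPKM in siYAP/TAZ 2, and did not pass the adjusted p (limma, 0.0544). *KRT6A* was 3.81 and 4.44 FPKM in siNC, 3.08 FPKM in siYAP/TAZ 1 and 25.3 FPKM in siYAP/TAZ 2. It has near-identical copies, *KRT6B* and *KRT6C*, so that its reads are uncertain. *SELENOP*, a selenium transport protein, and *FGFBP1*, which releases growth factors from the matrix, were higher in siYAP/TAZ 2 (7.61 and 13.1 FPKM) than in siYAP/TAZ 1 (1.27 and 3.52 FPKM). In siNC *SELENOP* was 0.598 and 0.477 FPKM and *FGFBP1* 2.76 and 2.64 FPKM, below both siYAP/TAZ samples. For *SELENOP* this was fixed by the filter, which it passed only through siYAP/TAZ.

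Lower in siYAP/TAZ 2 were *HAS3*, a hyaluronan synthase (98.2 FPKM in siYAP/TAZ 1, 32.3 FPKM in siYAP/TAZ 2, 55.3 and 57 FPKM in siNC), and *GPAT3*, an acyltransferase of triglyceride synthesis (30.7 and 9.5 FPKM, against 17.9 and 17.4 FPKM in siNC). In both genes the siNC samples lay between the knockdown samples, and the mean log2 fold changes were 0.0089 and -0.033. *AQP3* was above siNC in both. *U2AF1L5* (1.36 and 8.28 FPKM in siYAP/TAZ 1 and 2), *SLX1B* (22.3 and 0.622 FPKM, but also 11.8 and 0.0761 FPKM in siNC 1 and 2) and the readthrough gene *TNFAIP8L2-SCNM1* share their reads with copies or neighbours, and their values are uncertain.

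Genes with a match to an siRNA seed were described because each siRNA can also act on other transcripts through its seed. For siYAP_2, 1441 tested genes held its 7 seed-pairing bases in their 3′ UTR, and their median difference between siYAP/TAZ 2 and siYAP/TAZ 1 was 0.075 lower on the log2 scale than that of the other 8828. For siTAZ_2 it was 0.055 lower over 619 genes. For siYAP_1 and siTAZ_1, over 1159 and 1152 genes, it was 0.034 higher for each. Against the mean of siNC, the genes with a match differed from the others by -0.067 for siYAP_2 and -0.016 for siTAZ_2 in siYAP/TAZ 2, and by -0.015 for siYAP_1 and -0.021 for siTAZ_1 in siYAP/TAZ 1. Genes with a siTAZ_2 match were also 0.038 higher in siYAP/TAZ 1, which did not receive it. The seed's part in any single gene was not tested.

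The other knockdowns were measured against the same siNC samples, so their values are given side by side and not as a second line of evidence. *F3* was 20.3, 17.9 and 20.6 FPKM in siHHEX 1, 2 and 3 and 9.93 FPKM in the siTEAD1/2/3/4 sample, beside 11.3 and 10.4 FPKM in siYAP/TAZ. *AMOTL2* was 3.65, 3.93 and 3.44 FPKM in siHHEX and 6.65 FPKM in siTEAD1/2/3/4. *YAP1* itself was 5.77, 17.4 and 6.93 FPKM in siHHEX and 22.6 FPKM in siTEAD1/2/3/4, and *WWTR1* was 5.12, 6.12 and 8.55 FPKM and 6.84 FPKM.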

How the data were processed

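RNA of HCT-116 cells was read for 2 siNC and 2 siYAP/TAZ samples, grouped by their labels. The authors deposited 1 FPKM value per gene and sample (20030 rows, of which 27 are named by a date); the submitters' processing notes name Trimmomatic 0.36, HISAT2 2.0.5, Cufflinks 2.2.1 and HTSeq 0.9.1. The genome build and annotation behind the FPKM values are not given in the sources used here. The study's own test needs read counts, which were not used here; instead limma 3.58.1 in R 4.3.3 was fitted to log2(FPKM + 1) of the 4 samples, with a trend of the variance on level, and p values were adjusted with the Benjamini-Hochberg method over the 10461 genes with at least 1 FPKM in 2 samples. On this scale the change of a scarce gene comes out smaller than it is. The fit was tested on simulated data: of 200 genes given a log2 change of 1 among 10461, it recovered 99.5%, with 17 false calls. The changed genes were drawn only from those above a set mean level, and each gene had the same spread in both groups. These figures thus do not describe scarce genes, or siYAP/TAZ samples that differ more from each other than the siNC samples do.

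Gene coordinates, GC content, lengths and 3′ UTRs came from GENCODE 44 on GRCh38, matched by symbol, and promoters from RefSeq. Alternatives were a pseudocount of 0.1, other filters, all 8 samples, the replicate number as a block, median scaling, rescaling of FPKM to a common sum, correction for GC content and length, no variance trend, a fold of 1.5 and leaving out each sample. The members and gene lists were chosen with earlier results of these data known. Named are *YAP1* and *WWTR1*; the 12 lowest and 12 highest log2 fold changes that passed without overlap; up to 4 called genes per list by size, otherwise the most abundant; the 5 largest differences each way between the siYAP/TAZ samples; 2 genes on each side of the filter; and any member of the Hippo, TEAD and target lists. Other genes were chosen after their values were seen. Python 3.11.15, pandas 2.3.3, scipy 1.17.1 and matplotlib 3.10.9 were used for the rest.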

Additional observations from a re-analysis of the deposited data

How the results depend on the processing

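The counts by adjusted p moved most. Leaving out one sample in turn gave 1 to 1989 lowered and 0 to 3494 raised genes, the lowest without siNC 2 (1 and 0) and siNC 1 (3 and 1), the highest without siYAP/TAZ 1 (1989 and 3494); without siYAP/TAZ 2 there were 1433 and 2604. Each of these fits assumed that a lone sample varied like the other group. With no filter 1 gene was lowered and 0 raised (1311 and 3337 at an unadjusted p under 0.05), in the fit of all 8 samples 250 and 741, with median scaling 915 and 785, after correction for GC content and length 1028 and 851, and after this correction with the replicate block 1132 and 1057. The cause of these shifts was not tested. By fold over 2 and p, leaving out one sample gave 46 to 82 lowered and 113 to 262 raised genes, a pseudocount of 0.1 gave 74 and 405, rescaling to a common sum gave 57 and 341, and a fold over 1.5 gave 250 and 833. *YAP1* and *WWTR1* kept their direction in all 14 alternatives (-1.41 to -1.16 and -1.34 to -1.09). *YAP1* missed the threshold with no filter (-1.28, adjusted p = 0.07), in the fit of all 8 samples (-1.28) and without either siNC sample, and *WWTR1* with no filter (-1.1, adjusted p = 0.07) and without either siNC sample, all by limma. The 122 named genes called in the 4-sample fit, *YAP1* and *WWTR1* included, kept their sign in every alternative that tested them. Of the genes not called, *KRT6A* ran from -0.33 without siYAP/TAZ 2 to 2.36 without siYAP/TAZ 1, *GPAT3* from -0.83 without siYAP/TAZ 1 to 0.76 without siYAP/TAZ 2, and *HAS3* from -0.78 without siYAP/TAZ 1 to 0.8 without siYAP/TAZ 2, each passing the adjusted p by limma at both ends. Deviations of same-numbered samples correlated at -0.0253 across genes. This cannot decide whether same-numbered samples shared a batch, as the number of a siYAP/TAZ sample also stands for its siRNA pair. With the replicate block 589 genes were lowered and 1473 raised, of which 490 and 1170 were also called without it. GC content and length accounted for 0.616% to 4.02% of the variance of a sample's deviations. The depth of the samples is unknown and limits the low genes most.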

Other observations

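Several genes outside the lists passed a fold change over 2 and an adjusted p under 0.05, and are named here after their values were seen. *TNFRSF12A*, the receptor of the cytokine TWEAK, fell from 252 and 271 FPKM in siNC to 92.1 and 91.8 FPKM in siYAP/TAZ (limma adjusted p = 0.00445). *S100A10*, the partner of annexin A2, fell from 367 and 380 FPKM to 182 and 161 FPKM, and *ANXA3*, an annexin, from 139 and 127 FPKM to 59.6 and 44.1 FPKM. *GADD45B*, a stress-induced gene, fell from 17 and 16.4 FPKM to 4.98 and 5.4 FPKM, whereas its relative *GADD45A* was not called.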
